A study of Rattus norvegicus with 10 samples.

Results

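Lymphocytes carry a small set of genes by which T cells, B cells and natural killer (NK) cells are recognised in a tissue, and their probes on a rat gene expression array were followed in the trigeminal ganglion (TG), the sensory ganglion of the face and mouth. The genes were the CD3 chain genes *Cd3e*, *Cd3d* and *Cd3g*, the co-receptor genes *Cd4* and *Cd8a*, the kinase gene *Lck*, the B cell receptor chain genes *Cd79a* and *Cd79b*, and the cytotoxic cell genes *Nkg7* and *Gzma*. Members were chosen as every probe whose transcript accession belongs to one of these 10 genes, whatever its value. Of the 10 genes, 9 had a probe, with 1 probe each among the 30367 probes of the array (15507 genes with a symbol), and no accession on the array matched *Cd79a*. Of the 9 probes, 6 passed the filter on dim probes and were tested, among 21969 probes tested in all.

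The OUM model (oral ulcerative mucositis) was made in male Wistar rats with a filter paper carrying 50% acetic acid, held for 30 s against the labial fornix of the lower incisors under anaesthesia. TG of 5 OUM rats were taken on day 2, against TG of 5 age-matched naive male Wistar rats of the same day, which were anaesthetised and received nothing else. Each rat gave 1 array, so n is the number of rats. The whole ganglion was lysed after perfusion with saline, so an array holds neurons, glia, resident and passing blood cells and whatever was dissected with the ganglion. In such bulk RNA, fewer cells of a type and less RNA per cell cannot be told apart.

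T cells recognise antigen through a receptor whose signal passes through the CD3 chains. CD4 or CD8 binds the MHC molecule on the other cell and brings in the kinase Lck, which phosphorylates the CD3 chains. B cells signal through the CD79A and CD79B chains that sit beside the surface antibody. NK cells and cytotoxic T cells kill through granules, which hold granzyme A (encoded by *Gzma*) and whose membrane contains the Nkg7 protein. In rats CD4 is also found on macrophages, and sensory ganglia hold resident macrophages beside few lymphocytes.

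The levels below are log2 processed signals (background-subtracted fluorescence) relative to the 75th percentile of the array, so that 0 is the level of that percentile and each unit is a factor of 2. That percentile lay between 2617 and 2939 signal units over the 10 arrays, and each array had between 21514 and 23457 probes well above background. A probe counts as well above background on an array when at least 50% of its spots carry that mark of the scanner software. Sensory neuron markers were present as the tissue label implies: 11 of 12 probes of the neuron list were well above background on all 10 arrays. The arrays lay on 2 slides, of which slide 1 held 3 OUM and 4 naive arrays and slide 2 held 2 OUM arrays and 1 naive array. Pituitary hormone genes stood apart on 3 arrays: the mean log2 signal of 6 pituitary probes was -0.06 on OUM 2, -0.38 on OUM 1 and -0.46 on naive 1, and between -5.35 and -1.85 on the other arrays. Signals of different probes depend on the probe, so no member is ranked against another.

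The upstream sequences of 3 members are given because the results turn on how these probes vary between rats: *Cd3d* and *Cd3g* are neighbours on chromosome 8 that are read away from each other from start sites 1601 bases apart, and *Nkg7* varied with the B cell gene *Cd79b*. The sequences are the 250 bases before the annotated start, from RefSeq on the GRCr8 build and printed 5′ to 3′ on the strand of the gene, which is + for *Cd3d* (chr8:54185269-54185518), - for *Cd3g* (chr8:54183919-54184168) and + for *Nkg7* (chr1:102981247-102981496). Capitals mark GGAA, the core of sites for ETS factors, and ACCACA, the core of sites for RUNX factors, each on both strands, so that GGAA on the other strand reads TTCC.
Cd3d: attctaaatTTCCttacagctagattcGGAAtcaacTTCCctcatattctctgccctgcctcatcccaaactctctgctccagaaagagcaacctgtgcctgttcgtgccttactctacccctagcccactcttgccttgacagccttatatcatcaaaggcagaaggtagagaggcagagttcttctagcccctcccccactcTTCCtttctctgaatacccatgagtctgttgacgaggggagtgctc
Cd3g: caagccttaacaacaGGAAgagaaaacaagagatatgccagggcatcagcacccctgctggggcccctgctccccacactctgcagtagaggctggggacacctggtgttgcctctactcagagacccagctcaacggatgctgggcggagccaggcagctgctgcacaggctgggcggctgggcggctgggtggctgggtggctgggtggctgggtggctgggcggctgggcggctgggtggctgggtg
Nkg7: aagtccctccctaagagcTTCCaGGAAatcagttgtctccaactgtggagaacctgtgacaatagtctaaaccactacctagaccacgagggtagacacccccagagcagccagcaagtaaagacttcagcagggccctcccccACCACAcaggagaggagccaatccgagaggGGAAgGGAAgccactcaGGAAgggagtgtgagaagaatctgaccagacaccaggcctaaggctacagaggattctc

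GGAA was found 4 times in the *Cd3d* window, once in that of *Cd3g* and 5 times in that of *Nkg7*, against a median of 3 among 33469 promoter windows of the same length, 93.2% of which hold it. ACCACA was found in the *Nkg7* window and in neither CD3 window printed, and 14.5% of all windows hold it. It was also in the *Gzma* window and in 1 of the 2 *Lck* windows, and not in those of *Cd3e*, *Cd8a* and *Cd79a*. The E-box CANNTG, a palindrome in its fixed letters, occurred 2 times each for *Cd3g* and *Nkg7* and was not found for *Cd3d*, and 65.5% of all windows hold it. TATAAA was in none of the 3 windows and in 12.9% of all. The base composition differed, with 49.6% G and C for *Cd3d* and 66.4% for *Cd3g*. A match is a match of letters and no evidence of binding. Of the 10 genes, 8 had an entry in the promoter table. *Cd4* and *Cd79b* had none, so the window of *Nkg7* cannot be set beside that of *Cd79b*.

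For none of the 6 member probes tested was a difference between OUM and naive TG called. No member passed an adjusted p of 0.05 (limma, Benjamini-Hochberg over 21969 probes), and none passed an unadjusted p of 0.05 in either direction. Over the whole array 0% of all probes passed the adjusted threshold, while without adjustment 829 probes (3.77%) were higher in the OUM model and 1108 (5.04%) were lower. The methods' t-test also called 0 probes after adjustment, and 695 higher and 1107 lower without it. Of the members tested, 3 had a positive difference and 3 a negative one, with a median of 0.02, beside -0.01 for all probes tested, whose 5th and 95th percentiles were -0.19 and 0.24. The 95% intervals of the differences, which the plot of differences shows, all lay within -0.65 and 0.34 on the log2 scale. They are intervals of probe signal, not of RNA or cell number, and *Lck* and *Gzma* were dim. The members not tested, *Cd3e*, *Cd8a* and *Cd79b*, have no interval.

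**Figure D1:**
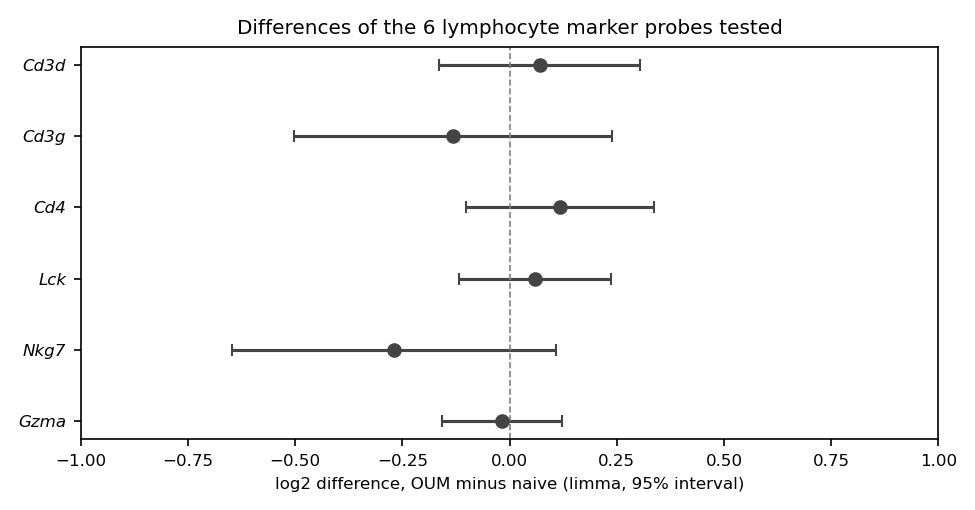
Log2 difference (OUM minus naive, x axis) of the 6 lymphocyte marker probes tested, with the 95% interval of the limma fit (5 OUM and 5 naive arrays). All 6 intervals cross 0, and the differences run from -0.27 for *Nkg7* to 0.12 for *Cd4*.

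Among the CD3 chains, *Cd3d* had a similar level in both groups. Its log2 signal was -2.60, -2.76, -2.67, -2.29 and -2.39 on OUM 1 to 5, against -2.68, -2.68, -2.68, -2.32 and -2.69 on naive 1 to 5. The groups overlapped, and the OUM 4, OUM 5 and naive 4 arrays stood above the other 7. The means were -2.54 ± 0.20 in OUM TG and -2.61 ± 0.16 in naive TG (SD, n = 5 each), a difference of 0.07 with a standard error of 0.11 (limma, adjusted p = 0.876). It was 0.0064 without OUM 4 and 0.14 without naive 4.

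*Cd3g*, the neighbouring chain gene, spread more widely between rats. OUM 1 to 5 had log2 signals of -5.00, -4.36, -5.29, -4.52 and -4.77, against -4.45, -4.73, -4.52, -4.89 and -4.68 on naive 1 to 5. The OUM arrays held both the highest value, on OUM 2, and the 2 lowest, on OUM 3 and OUM 1, and the naive arrays lay between them. The means were -4.79 ± 0.37 in OUM TG and -4.66 ± 0.17 in naive TG (SD, n = 5 each), a difference of -0.13 with a 95% interval of -0.50 to 0.24 (limma, adjusted p = 0.844). It was -0.0062 without OUM 3 and -0.24 without OUM 2.

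The third chain gene, *Cd3e*, was at background throughout: its probe was well above background on 0 of 10 arrays and on 0 of 20 spots. The signals ran from -9.39 to -8.27 on OUM arrays and from -9.46 to -8.57 on naive arrays, so no fold is given. *Cd8a*, which encodes a chain of the CD8 co-receptor, was marked on a single spot of 20, on naive 4. Its signal lay between -9.37 and -8.29 on OUM arrays, and at -8.64, -9.27, -9.48, -6.51 and -8.92 on naive 1 to 5. The value of naive 4 is the mean of 2 spots with an SD of 2.77, so that array rests on 1 bright spot.

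*Cd4* was present on every array and moved little. On OUM 1 to 5 the log2 signal was -5.50, -5.11, -5.39, -5.07 and -5.39, against -5.47, -5.38, -5.62, -5.33 and -5.26 on naive 1 to 5. OUM 2 and OUM 4 lay above all naive arrays and the other 3 OUM arrays among them. The difference was 0.12 with a 95% interval of -0.10 to 0.34 (limma, adjusted p = 0.746; exact two-sided permutation p = 0.302).

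*Lck* was dim, near the limit of detection: 16 of its 20 spots were marked, and on naive 5 neither was. Its log2 signal was -6.62, -6.75, -6.55, -6.62 and -6.50 on OUM 1 to 5, against -6.50, -6.81, -6.61, -6.55 and -6.85 on naive 1 to 5. The groups overlapped, with means of -6.61 ± 0.10 in OUM TG and -6.66 ± 0.16 in naive TG (SD, n = 5 each). The difference of 0.06 (limma, adjusted p = 0.858) turned to -0.033 with a normexp background correction and to -0.0071 with quantile normalization.

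*Cd79b* had the widest swings among the members that were detected on several arrays, and they did not follow the groups. The probe gave log2 signals of -6.65, -5.60, -8.02, -5.93 and -7.40 on OUM 1 to 5, against -5.35, -5.63, -6.98, -7.95 and -7.12 on naive 1 to 5. It was well above background on 3 of 5 OUM arrays (OUM 1, 2 and 4) and on 3 of 5 naive arrays (naive 1, 2 and 3), which kept it out of the test. The means were -6.72 ± 1.00 in OUM TG and -6.61 ± 1.09 in naive TG (SD, n = 5 each; exact two-sided permutation p = 0.857). From the lowest to the highest rat the signal changed 6.38-fold, and the low end is a bound set by the background.

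*Nkg7* was well above background on every array and had the largest difference among the members tested. Its log2 signal was -4.49, -4.21, -4.67, -4.26 and -4.71 on OUM 1 to 5, against -3.68, -4.06, -4.29, -4.62 and -4.35 on naive 1 to 5. The 2 highest arrays, naive 1 and naive 2, were naive and the 2 lowest, OUM 5 and OUM 3, were OUM arrays, and the rest were mixed. The difference of -0.27 had a 95% interval of -0.65 to 0.11, which is 0.64-fold to 1.08-fold (limma, adjusted p = 0.675; exact two-sided permutation p = 0.206). It was -0.36 within slide 1 and 0.13 within slide 2, where the only naive array was naive 4. Without naive 4 the difference was -0.37 and passed an unadjusted p of 0.05 (limma, unadjusted p = 0.0422, adjusted 0.435), and in no other fit without 1 array did a member do so. Without naive 1 it was -0.14 (limma, adjusted p = 0.859).

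*Gzma* was dim and the most even of the members tested. Its log2 signal was -6.45, -6.24, -6.34, -6.19 and -6.49 on OUM 1 to 5, against -6.40, -6.33, -6.26, -6.31 and -6.32 on naive 1 to 5. The naive values lay inside the range of the OUM values. The difference was -0.02 with a 95% interval of -0.16 to 0.12 (limma, adjusted p = 0.954).

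**Figure D2:**
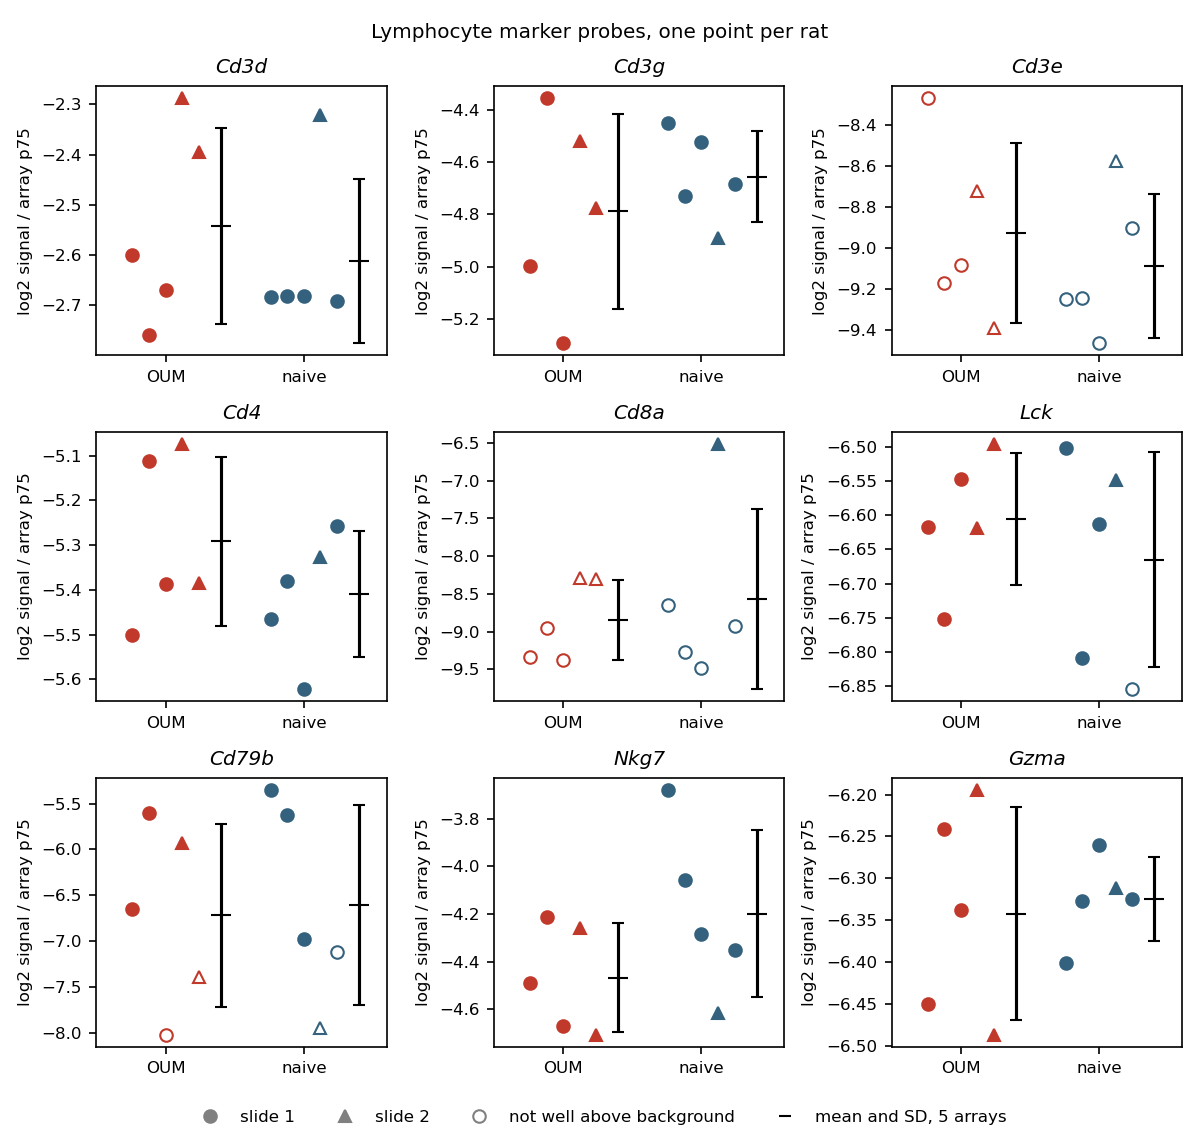
Log2 signal relative to the 75th percentile of the array (y axis) of the 9 member probes in OUM and naive TG, 1 point per rat, with the mean and SD of 5 arrays beside them. Circles are slide 1 and triangles slide 2, and open symbols were not well above background: *Cd3e* is open on all 10 arrays, and *Cd3d* is higher on the 3 slide 2 arrays.

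The array repeats some probes, which gives the spread of spots within an array apart from the spread between arrays. With 1 array per rat, the spread between arrays holds the rat, the labelling, the hybridisation and the slide, which cannot be told apart. *Cd3d*, *Cd3g* and *Gzma* had 8 to 10 usable spots an array and the other members 2. For *Cd3d* the SD over the spots of an array was 0.10 (median over arrays), which puts the standard error of an array mean at 0.03, beside an SD of 0.17 between the 10 arrays. For *Cd3g* the standard error of an array mean was 0.04 and the SD between arrays 0.28, so its spread between arrays was well beyond that of its spots. *Gzma* was the reverse, with a median SD over spots of 0.64 and an SD of 0.09 between arrays. Its standard error, computed as if spots were independent, was 0.20, which is more than the spread between arrays. For this probe it is therefore not a usable error of an array mean, and why its spots differ was not tested. Of the tested probes of the whole array, 89.2% had a smaller SD over the 10 arrays than *Nkg7*, 86.5% a smaller one than *Cd3g*, 66.5% than *Cd3d*, 65% than *Cd4*, 48.4% than *Lck* and 27.9% than *Gzma*.

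**Figure D3:**
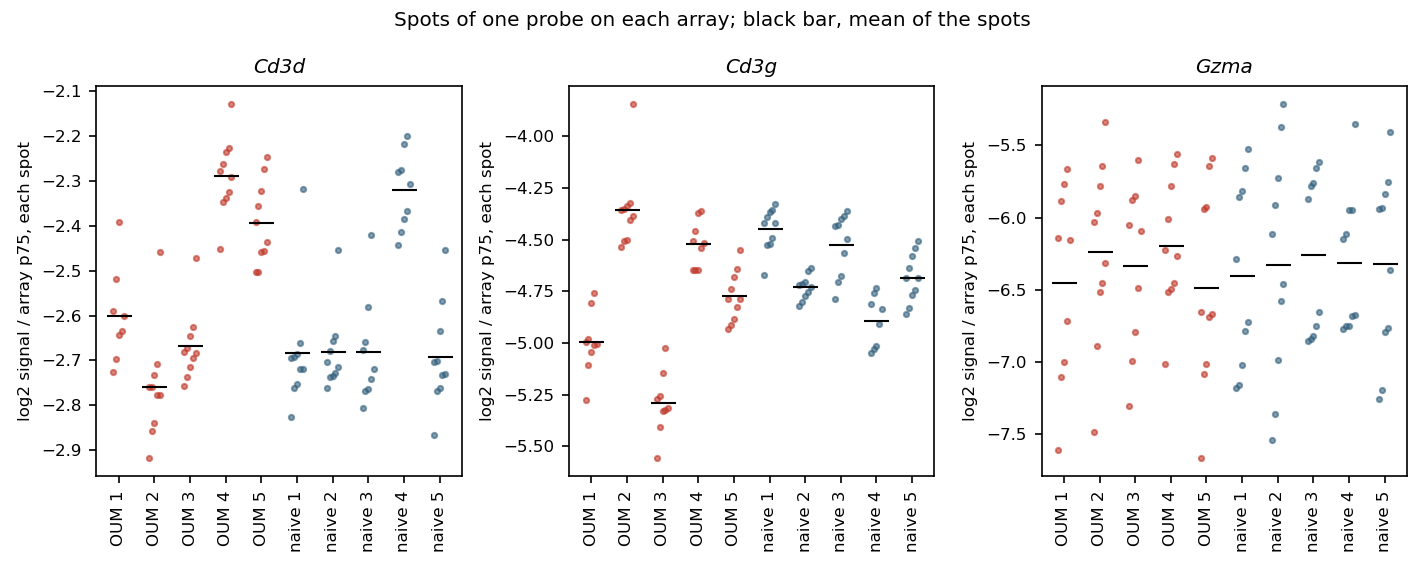
Log2 signal of every usable spot (y axis) of the *Cd3d*, *Cd3g* and *Gzma* probes on each array, OUM in red and naive in blue, with the mean of those spots as a black bar. Spots of *Cd3d* and *Cd3g* lie close together within an array, and those of *Gzma* cover more than 1 log2 unit on every array.

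The spread of *Cd3d* followed the slide. On slide 2 its log2 signal was -2.39 to -2.29 and on slide 1 -2.76 to -2.60, with no overlap. In the fit with group and slide, slide 2 was higher by 0.35 (limma, adjusted p = 0.00105 over 21969 probes). The exact permutation p over 120 assignments of the slides was 0.00833, the smallest it can give, and was not adjusted over the members. The comparison of members by slide was not planned. Across the array 2045 probes (9.31%) were higher on slide 2 and 597 (2.72%) lower at an adjusted p under 0.05, and of the 6 members tested *Cd3d* alone was called. With slide as a block the difference of *Cd3d* between OUM and naive was 0.00062, against 0.07 without it. The slides differ in more than the glass, since each holds other rats, so slide and rat cannot be told apart.

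Among the other T cell genes, 3 of 15 probes tested were also higher on slide 2, those of *Cd8b*, a chain of the CD8 co-receptor, *Cd6*, a surface receptor, and *Tbx21*, a transcription factor of T helper 1 cells. The probes of *Cd6* disagree, since 1 was 0.30 higher on slide 2 (limma, adjusted p = 0.00876) and the other tested differed by -0.07 (limma, adjusted p = 0.739). *Cd8b* was 0.67 higher on slide 2 (limma, adjusted p = 0.0014). The log2 signals of *Cd8b* were -4.71, -5.03, -5.08, -4.10 and -4.26 on OUM 1 to 5, against -4.69, -4.72, -4.87, -4.23 and -4.76 on naive 1 to 5, so the same 3 arrays were the highest as for *Cd3d*. *Cd8b* was thus detected on every array, while *Cd8a* was marked on 1 spot of 20. The mean of *Tbx21* was 4.81 in OUM TG and 4.88 in naive TG, while *Cd2*, *Trat1* and *Ifng* were at background on every array. Whether these probes report T cells in this tissue was not tested. The NK list had 2 of 6 probes higher on slide 2, those of the receptor gene *Klrk1* and of *Cst7*, a protease inhibitor. Of the B cell probes 0 of 12 were higher on slide 2, and of those of all leukocytes 0 of 11, beside the 9.31% of the whole array.

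A second pattern joined *Cd79b*, *Nkg7* and, less tightly, *Cd3g*, and it did not follow the slide or the groups. Naive 1, naive 2, OUM 2 and OUM 4 were the 4 highest arrays for both *Cd79b* and *Nkg7*. Over the 10 arrays *Cd79b* and *Nkg7* had a Pearson r of 0.87 (permutation p = 0.00051, adjusted 0.0107 over 21 pairs of members) and a Spearman rho of 0.92 (permutation p = 0.00033, adjusted 0.00693). Without the 2 arrays farthest from the median of *Cd79b*, naive 1 and OUM 2, r was 0.86, and within slide 1 it was 0.86 (n = 7, permutation p = 0.0117). Without the 3 arrays rich in pituitary transcripts r was 0.89 (permutation p = 0.0037, n = 7). On 4 of the 10 arrays *Cd79b* was not well above background, so its order there is not measured.

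*Cd3g* went the same way, with an r of 0.73 with *Cd79b* (rho 0.77) and of 0.69 with *Nkg7* (rho 0.77). The permutation p of r were 0.0166 and 0.029 before adjustment and 0.174 and 0.203 after it, so these relations did not pass the correction. No other of the 21 pairs passed it. Of the pairs fixed as belonging to one complex or cell type, only *Cd3d* with *Cd3g* and *Nkg7* with *Gzma* were well above background on all 10 arrays, and the other 19 pairs were added after the values were seen. *Cd3d* and *Cd3g* had an r of -0.13 and a rho of -0.50 over the 10 arrays (permutation p = 0.73 and 0.145, adjusted 0.807 and 0.364), a pool of the 2 clusters into which *Cd3d* falls by slide. Within slide 1 r was -0.65 and rho -0.86 (n = 7, permutation p = 0.129 and 0.0235, neither adjusted), where the 4 naive values of *Cd3d* lie closer together than the standard error of an array mean, so the relation of these chain genes was not settled. *Nkg7* and *Gzma* had an r of 0.21 and a rho of 0.37 (permutation p = 0.571 and 0.296), and r was 0.43 without naive 1 and OUM 5 and -0.06 within slide 1.

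**Figure D4:**
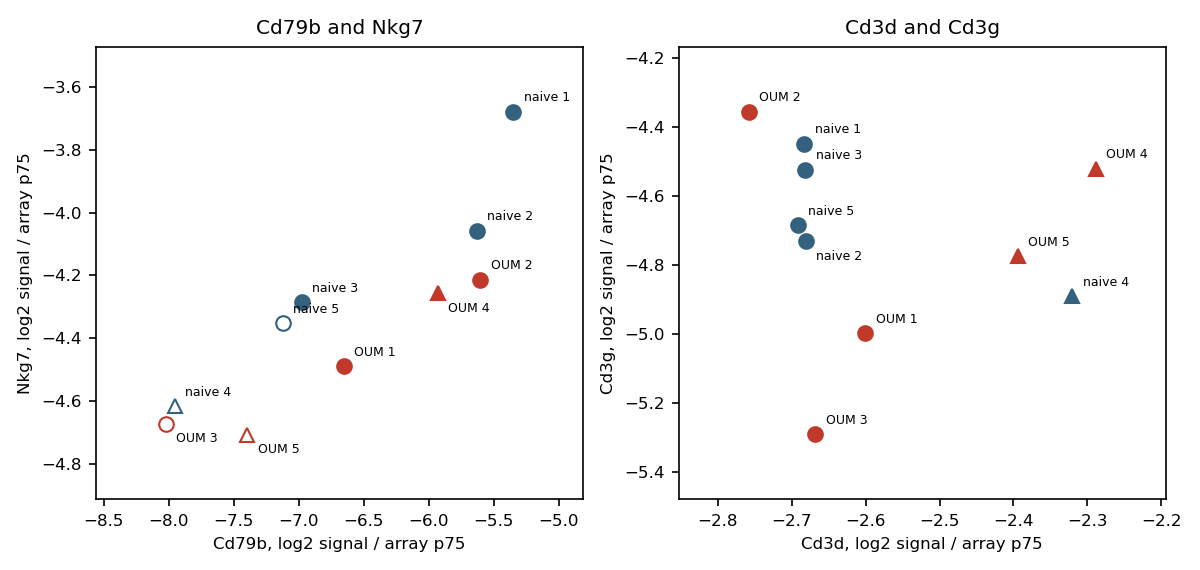
Log2 signals of *Nkg7* against *Cd79b* (left) and of *Cd3g* against *Cd3d* (right), 1 point per rat, OUM in red and naive in blue, circles for slide 1 and triangles for slide 2. Open symbols have a member not well above background. *Cd79b* and *Nkg7* line up (r of 0.87) across both groups, whereas *Cd3d* splits by slide.

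The same 4 arrays were high for other B cell genes and for neutrophil genes. Of the other B cell genes looked for, 17 of 22 had a probe, 12 of 20 probes were tested, and *Blk*, *Cr2*, *Fcer2* and *Tnfrsf17* were at background on every array. The mean log2 signal of the 12 B cell probes followed *Cd79b* with an r of 0.93 and a rho of 0.95 (permutation p = 0.00022 and 0.0001, adjusted 0.00616 and 0.0028 over 56 relations of 7 members with 8 lists). All 56 were added after the values were seen. That includes the relations below with the neutrophil, red cell and macrophage lists. It followed *Nkg7* with an r of 0.88 (permutation p = 0.00053, adjusted 0.00742; rho 0.85, permutation p = 0.00279, adjusted 0.0391), and the r within slide 1 was 0.90 for *Cd79b* and 0.91 for *Nkg7*. Leaving out the 2 farthest arrays left r at 0.89 and 0.86. For *Cd3g* r was 0.76 and rho 0.82 (permutation p = 0.0102 and 0.00575), which did not pass the correction (adjusted p = 0.0952 and 0.0644).

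Neutrophil genes moved with *Cd79b* as closely, with an r of 0.92 and a rho of 0.96 (permutation p = 0.0002 and 6e-05, adjusted 0.00616 and 0.0028) for the mean of 6 probes. For *Nkg7* r was 0.90 and rho 0.92 (permutation p = 0.00033 and 0.00044, adjusted 0.00616 and 0.00821), falling to 0.78 without naive 1 and OUM 5. Within slide 1 the r were 0.93 and 0.86. The summed signal of the 6 neutrophil probes, in units of the 75th percentile, ran from 0.325 to 3.37 on OUM arrays and from 0.369 to 6.27 on naive arrays. Of the neutrophil genes, *Cxcr2* and *Ltf* were at background on all 10 arrays. The receptor gene *Csf3r* was well above background on 5 of 5 OUM and 5 of 5 naive arrays, as were *S100a8*, *S100a9*, *Camp* and *Retnlg*. Red cell and platelet genes also moved with both members within slide 1, with an r of 0.90 for *Cd79b* and 0.89 for *Nkg7* (n = 7, permutation p = 0.0107 and 0.00182, neither adjusted), but over the 10 arrays r was 0.36 for each (permutation p = 0.308 and 0.319, adjusted 0.706 for both). What these genes share with *Cd79b* and *Nkg7* was not tested.

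Values of 3 genes show the size of the pattern where it was strong. *S100a9*, *Camp* and *Spib* were among the genes most like *Cd79b* in a search over 11980 genes, so they do not stand for their lists. Not every list gene varied so much. The SD was 0.16 in OUM TG and 0.08 in naive TG for the B cell gene *Pax5*. For the neutrophil gene *Csf3r* it was 0.30 and 0.24. *S100a9*, which encodes a subunit of the neutrophil protein calprotectin, had a log2 signal of -0.61, 0.72, -1.76, -0.35 and -3.05 on OUM 1 to 5, against 1.64, 0.30, -1.07, -2.78 and -1.15 on naive 1 to 5. *Camp*, the gene of the antimicrobial peptide cathelicidin, had -2.54, -1.01, -3.03, -2.07 and -3.95 on OUM 1 to 5, against -0.13, -1.40, -2.80, -3.77 and -2.80 on naive 1 to 5. The spread between naive rats alone covered more than 3 log2 units for both. *Spib*, a transcription factor gene of B cells, had -5.01, -3.94, -5.78, -4.67 and -6.04 on OUM 1 to 5, against -3.58, -4.05, -5.03, -6.19 and -5.25 on naive 1 to 5. Naive 1 was the highest and naive 4 or OUM 5 the lowest array for all 3 genes.

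**Figure D5:**
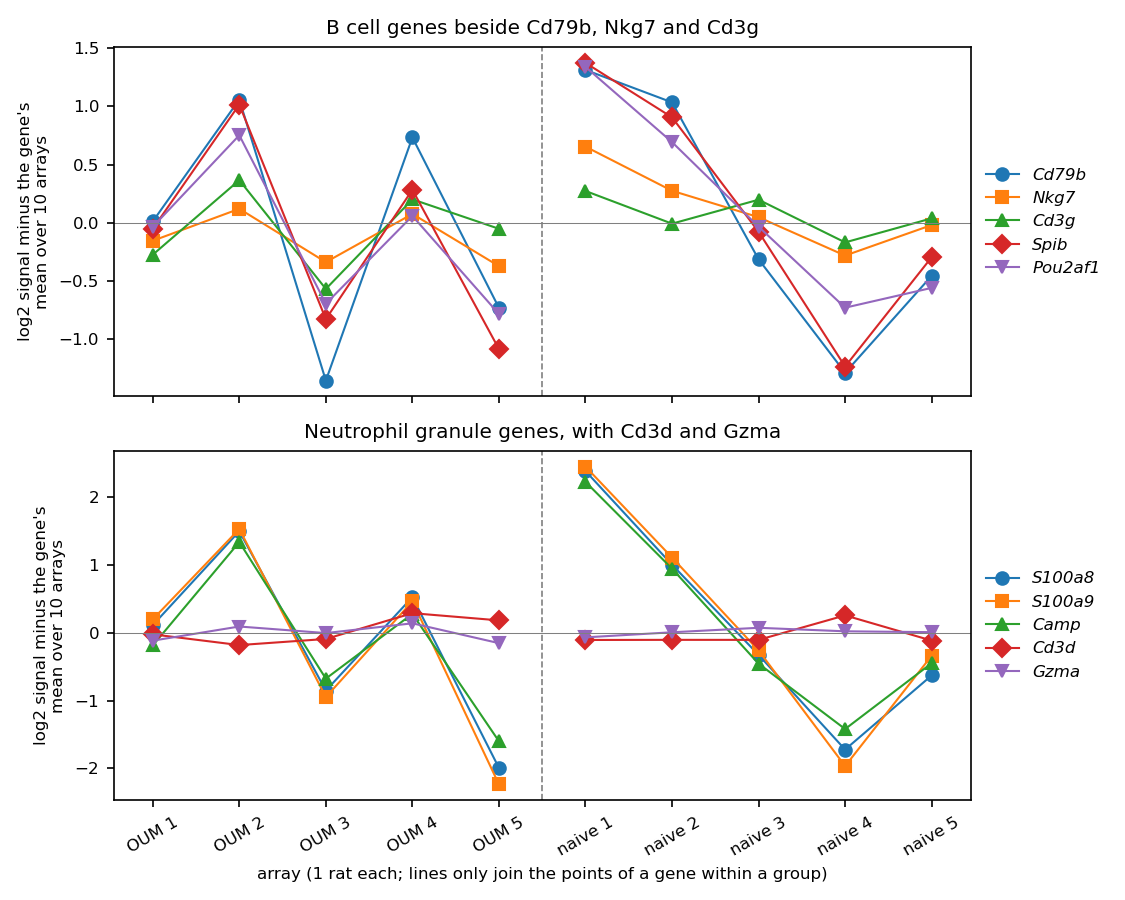
Log2 signal minus the mean of the gene over 10 arrays (y axis) on each array (x axis, OUM 1 to 5 then naive 1 to 5); lines join the points of a gene within a group. *Cd79b*, *Spib* and *Pou2af1* (top) and *S100a8*, *S100a9* and *Camp* (bottom) are high on OUM 2, naive 1 and naive 2, while *Cd3d* and *Gzma* stay within 0.3 of their means. *Spib*, *Pou2af1*, *S100a8*, *S100a9* and *Camp* are among the genes most like *Cd79b* in a search over 11980 genes.

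A search over 11980 genes with a symbol gave the genes most like each profile, as a description over 10 arrays. The genes most like the mean of *Nkg7* and *Gzma* were the defensin genes *RatNP-3b* (r 0.94), *Np4* (r 0.94) and *Defa5* (r 0.94). That mean mostly follows *Nkg7*, whose SD over the 10 arrays was 0.31, beside 0.09 for *Gzma*. In searches chosen after the values were seen, *Cd79b* was most like *Spib* (r 0.96), *Ngp* (r 0.93), *Fcnb* (r 0.93) and *Pou2af1* (r 0.93), the gene of a B cell transcriptional coactivator. *Nkg7* was most like *Prg2* (r 0.94), which encodes an eosinophil granule protein, and *Epor* (r 0.93), the erythropoietin receptor gene. The mean of *Cd3d* and *Cd3g* was most like *Ripk2* (r 0.94), *Dse* (r 0.91) and *Stx6* (r 0.90), none of them a lymphocyte marker. With an r of -0.13 between *Cd3d* and *Cd3g*, their mean is not a profile that both share.

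*Cd4* had another profile. Among the genes most like it were *Nudcd3* (r 0.91) and *Blnk* (r 0.89), an adaptor of B cells and macrophages. With the mean of 20 macrophage probes, all of them well above background on every array, r was 0.87 (permutation p = 0.0018, adjusted 0.0202) and rho 0.78 (permutation p = 0.0109, adjusted 0.102), so the rank relation did not pass the correction. Without OUM 4 and OUM 2 r fell to 0.56, so the relation rests in part on those arrays, and within slide 1 it was 0.92. Over the 10 arrays its r was 0.28 with *Cd3g*, 0.29 with *Cd3d* and -0.36 with *Lck*, and that with *Cd3d* was -0.68 within slide 1.

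In wider lists of immune genes, none of the probes passed an adjusted p of 0.05 between OUM and naive TG (limma). Unadjusted counts stand beside 3.77% higher and 5.04% lower among all 21969 probes tested. Of 30 other T cell genes 27 had a probe, 15 of 32 probes were tested, and without adjustment 0 were higher in the OUM model and 1 lower (p under 0.05), with a median difference of 0.02. The one was *Lcp2*, an adaptor of the T cell receptor that other blood cells also carry, at -4.24 ± 0.27 in OUM TG and -3.87 ± 0.11 in naive TG (SD, n = 5 each), a difference of -0.37 (limma, unadjusted p = 0.0129, adjusted 0.495). Of these T cell genes *Cd2*, *Cd27*, *Cd40lg*, *Icos*, *Ifng*, *Il2*, *Skap1* and *Trat1* were at background on every array.

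None of the 12 B cell probes tested passed an unadjusted p of 0.05, and their median difference was -0.05. The difference of *Pou2af1* was -0.28 (limma, adjusted p = 0.875). In the NK and cytotoxic list 20 of 24 genes had a probe, 6 of 25 probes were tested, none passed an unadjusted p of 0.05, and the median difference was 0.14. The largest were those of *Il2rb*, a chain of the receptor for interleukins that drive NK cells, by 0.21, and of the chemokine gene *Xcl1*, by 0.20. The NK receptor genes *Ncr1*, *Klrd1*, *Klrb1a*, *Klrb1b* and *Klrg1*, the granule genes *Gzmk* and *Ctsw*, and *Cd226* were at background on every array.

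Among the other granzyme genes, *Gzmm* was well above background on 5 of 5 OUM arrays and 5 of 5 naive arrays, and *Gzmk* on 0 and 0. A probe each of *Gzmb* and *Gzmc* differed in detection; they were singled out after their values were seen, and the difference in detection was not tested. A probe of *Gzmb* was well above background on 4 of 5 OUM arrays and 1 of 5 naive arrays, at -7.32, -6.40, -6.54, -6.18 and -6.53 on OUM 1 to 5 against -8.33, -7.76, -7.67, -5.99 and -7.49 on naive 1 to 5. A probe of *Gzmc* was also well above background on 4 of 5 OUM arrays and 1 of 5 naive arrays, at -6.06, -6.80, -4.95, -5.94 and -6.18 on OUM 1 to 5 against -7.35, -9.10, -7.75, -5.64 and -6.41 on naive 1 to 5. In both cases the naive array with a signal was naive 4, and the groups overlapped. Neither difference passed (exact two-sided permutation p = 0.119 for *Gzmb* and 0.0873 for *Gzmc*; unfiltered limma adjusted p = 0.733 and 0.734). The other probe of *Gzmb* was well above background on 1 array, so most of its values are background. Its mean was also higher in OUM TG, at -7.36 against -8.01 in naive TG. The exact two-sided permutation p was 0.0714, and the unfiltered limma p was 0.0343, adjusted 0.699. The other 2 probes of *Gzmc* were well above background on no array, so the probes of *Gzmc* disagree.

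The same shares of all probes tested, 3.77% higher and 5.04% lower, stand beside the lists below. Of the chemokines that draw lymphocytes, 11 of 15 probes were tested, and without adjustment 1 was higher and 0 were lower (p under 0.05). The 1 higher probe was that of *Ccl19*, a ligand of the receptor that guides T cells to lymph nodes, at -0.69 ± 0.24 in OUM TG and -1.02 ± 0.22 in naive TG (SD, n = 5 each; limma, unadjusted p = 0.0302, adjusted 0.519). Genes of all leukocytes showed 0 of 11 probes past an unadjusted p of 0.05, with a median of 0.01, and the largest changes were those of *Itgb2*, by 0.35, and *Laptm5*, by 0.22. Macrophage genes showed 2 of 20 higher and 0 lower, the complement genes *C1qa* (0.31, adjusted p = 0.505) and *C1qc* (0.23, adjusted p = 0.514, both limma), with a median of 0.12 over the list. Of the neutrophil probes 0 of 6 passed, with a median of -0.21, and the red cell and platelet list had 0 of 12. The 6 pituitary probes tested showed 0, with a median of 1.16, and the sums of their signals ran from 1.07 to 26.0 on OUM arrays and from 0.345 to 21.4 on naive arrays.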

How the data were processed

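RNA of TG from 5 OUM and 5 naive rats was hybridised to 1-colour Agilent rat arrays, 1 array per rat. The authors quantified the scans with Agilent Feature Extraction 10.7.1.1, and the deposited processed intensity of each spot is background-subtracted, with marks for outlier, saturated and well above background spots. The deposited value table of the authors holds a linear ratio, which for 92.7% to 93.4% of the probes of an array lies within 1% of the processed signal divided by 1 constant (column medians 0.114 to 0.120), and served as an alternative.

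Control spots and outlier spots (267 to 334 of 58717 an array) were left out, log2 intensity relative to the 75th percentile of the array was computed from the deposited signals, and the spots of a probe were averaged. Accessions were matched to a RefSeq table (GRCr8, names only), which named 18438 of 30367 probes. Probes detected (well above background) on each of the 5 OUM or each of the 5 naive arrays were tested. OUM was compared with naive in limma 3.58.1 (R 4.3.3) per probe, two-sided, Benjamini-Hochberg over 21969 probes, threshold 0.05, and single probes by an exact permutation test over 252 assignments (smallest p 0.00794). Relations over arrays used 100000 permutations. The scripts were tested on simulated data.

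Named genes are all members, list genes past an unadjusted p of 0.05 (or else the 2 with the largest change), and the 3 genes most like a member profile, besides those given as chosen later. Members and lists were chosen with earlier results of these data known. Alternatives covered background correction (normexp on the median spot signal), normalization, filters, probes per gene, outlier spots, slide, replicate number, other tests, the value table and arrays left out. P-values rest on the spread between arrays, which holds rat, labelling, hybridisation and slide together, and the number of arrays limits precision. The values of some listed genes are not reported here.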

Additional observations from a re-analysis of the deposited data

Results flagged for a closer look

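Each member was looked at in each group of 5 arrays for 1 array far from the other 4, by the gap to the nearest array over the range of the group (threshold 0.71), in 18 groups, of which chance alone would mark about 1 in 20. The 2 marked were both on naive 4. *Cd3d* was at -2.32 on naive 4 and the nearest naive array at -2.68, a gap of 0.971 of the range. Naive 4 is the only naive array on slide 2, and the OUM arrays of that slide were at -2.29 and -2.39. *Cd8a* was at -6.51 on naive 4 and the nearest naive array at -8.64, a gap of 0.718 of the range, and 1 of the 2 spots of naive 4 was well above background.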

How the results depend on the processing

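No alternative gave a member probe higher in the OUM model at an unadjusted p under 0.05, and no member probe lower except *Cd8a* on slide 2 alone and *Nkg7* without naive 4. The counts of all probes past an adjusted p of 0.05, 0 higher and 0 lower in the main comparison, became 1 and 2 with the normexp background, 1 and 1 with probes well above background on all 10 arrays, with the brightest probe of each gene, with outlier spots kept, or when more than 50% of spots had to be well above background (an alternative chosen after seeing the data, which left *Lck* untested), 3 and 1 with slide as a block, 3 and 4 on slide 1 alone, and 1 and 0 with an intensity trend and robust prior. Slide 2 alone, with 2 OUM arrays and 1 naive array and 1 residual degree of freedom, the lone naive array assumed to vary like the OUM arrays, gave 117 and 306, and 1 member past the adjusted threshold, lower, which was *Cd8a* (-1.78, limma adjusted p = 0.0144) through 1 bright spot on naive 4. The sign turned for *Lck* with normexp (-0.033), quantile normalization (-0.0071) and on slide 2 alone (-0.0085), for *Gzma* with outlier spots kept (0.076), and on slide 2 alone for *Cd3d* (-0.021), *Cd3g* (0.24) and *Nkg7* (0.13); the cause was not tested. Leaving out each array in turn gave 0 to 1 probes higher, 0 to 1 lower, 0 to 1 members lower at an unadjusted p, and differences from -0.054 to 0.019 for *Gzma*, 0.0064 to 0.14 for *Cd3d*, -0.24 to -0.0062 for *Cd3g*, 0.064 to 0.17 for *Cd4*, 0.012 to 0.10 for *Lck* and -0.37 to -0.14 for *Nkg7*. The r of *Cd79b* with *Nkg7* stayed between 0.84 and 0.89 when each array was left out. The replicate block gave 0 and 0 probes and changed no call. Deviations of same-numbered arrays from their group means had correlations of -0.09 to 0.31, the highest for OUM 4 and naive 4, which share slide 2. Such correlations cannot show whether the rats were paired by number.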
